A study of Mus musculus with 12 samples.

Results

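The genes described here are 45 genes that mouse cells switch on in response to type I interferon. They were taken by symbol from the deposited table of log2 normalised expression, which holds 24538 gene rows, and all 45 symbols were found there. All 45 also passed the filter on low values, a mean of at least 3 on the deposited log2 scale over 12 libraries, which left 12436 genes for testing. The table comes from CD4+ T cells of spleens and peripheral lymph nodes of C57BL/6 mice, labelled female. The cells were activated and kept in interleukin 6, a cytokine that drives TH17 differentiation, with a blocker of the TGF-β receptor. The groups were wild-type cells at 3 h, wild-type cells at 12 h, and at the same 2 times cells labelled CD4cre;Smad4fl/fl, with 3 libraries in each. In the second genotype, called KO below, a Cre recombinase driven by Cd4 is to delete the floxed Smad4 allele in the T cell lineage. Every library therefore had both agents, and neither untreated cells nor cells given interferon were analysed here.

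Type I interferons, the interferon α and β proteins, bind a receptor made of IFNAR1 and IFNAR2, whose kinases JAK1 and TYK2 activate the factor ISGF3. ISGF3 contains STAT2 and IRF9 and binds interferon-stimulated response elements near the starts of its target genes. The targets include sensors of foreign RNA, enzymes and binding proteins that block viral replication, the ubiquitin-like protein ISG15 with its conjugation machinery, and parts of the pathway itself. T cells carry the receptor, and resting T cells are known to hold a low tonic level of many of these transcripts.

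The promoter sequences are shown first because the core of the response element, GAAA followed by any 2 bases and a second GAAA, is what many of these genes share beyond their symbols. This 10-base motif was searched on both strands, with overlapping matches counted, from 250 bases before to 50 bases after each RefSeq start (GRCm38.p6). Of the 45 genes, 33 had such a window, and 17 of them (51.5%) held at least 1 match. Among all 32851 windows the share was 3.44%, and among the 9561 tested genes with a window it was 3.73%. At least 2 matches in a window were found for 7 of the 33 genes (21.2%), against 0.366% of the tested genes with a window. A match describes letters in a window and was not tested as a binding site, and members of a gene family share promoter sequence by descent. The 150 bases before the start are given 5′ to 3′ on the strand of the gene, with every match to the motif or to its reverse complement, TTTC, any 2 bases and TTTC, in capitals. Isg15, Ifit1, Ifit3, Oas1a, Oas1g, Rsad2 and Bst2 are shown from the genes with a match. Ifit2 and Slfn2 are shown from the 16 genes without, and were picked because they behaved differently over time. They are not typical of those 16, whose log2 differences from 3 h to 12 h in wild-type cells had a median of -1.51. The range was -4.22 to 1.00, and for genes with a match it was -4.74 to 0.53.
Isg15: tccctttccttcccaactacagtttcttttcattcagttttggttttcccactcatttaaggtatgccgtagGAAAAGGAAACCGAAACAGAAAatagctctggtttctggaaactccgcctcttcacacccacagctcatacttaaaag
Ifit1: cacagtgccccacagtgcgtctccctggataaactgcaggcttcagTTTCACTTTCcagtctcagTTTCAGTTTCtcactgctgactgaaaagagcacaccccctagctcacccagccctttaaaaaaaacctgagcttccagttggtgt
Ifit3: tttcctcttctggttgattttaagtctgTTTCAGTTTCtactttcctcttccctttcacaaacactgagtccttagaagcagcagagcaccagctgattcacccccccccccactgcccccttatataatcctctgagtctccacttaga
Oas1a: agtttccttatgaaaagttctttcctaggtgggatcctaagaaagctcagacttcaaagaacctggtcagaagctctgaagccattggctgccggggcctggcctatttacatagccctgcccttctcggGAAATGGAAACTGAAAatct
Oas1g: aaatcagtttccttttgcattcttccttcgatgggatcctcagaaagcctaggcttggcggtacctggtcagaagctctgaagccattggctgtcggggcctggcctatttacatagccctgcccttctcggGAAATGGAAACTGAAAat
Rsad2: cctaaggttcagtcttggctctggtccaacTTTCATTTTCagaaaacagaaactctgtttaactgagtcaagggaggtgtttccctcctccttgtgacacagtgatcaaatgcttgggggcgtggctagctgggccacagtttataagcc
Bst2: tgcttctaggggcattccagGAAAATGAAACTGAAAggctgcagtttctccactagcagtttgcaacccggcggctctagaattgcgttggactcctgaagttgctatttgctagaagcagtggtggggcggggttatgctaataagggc
Ifit2, upstream start: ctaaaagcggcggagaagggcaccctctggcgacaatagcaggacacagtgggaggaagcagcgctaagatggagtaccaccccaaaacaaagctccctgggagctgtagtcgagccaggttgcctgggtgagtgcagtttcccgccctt
Ifit2, downstream start: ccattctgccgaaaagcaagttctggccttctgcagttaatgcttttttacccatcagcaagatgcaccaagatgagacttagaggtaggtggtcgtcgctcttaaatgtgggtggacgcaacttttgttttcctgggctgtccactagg
Slfn2: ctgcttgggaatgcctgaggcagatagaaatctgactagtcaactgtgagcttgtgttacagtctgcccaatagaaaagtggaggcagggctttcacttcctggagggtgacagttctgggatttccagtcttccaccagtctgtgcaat
The stretches lie at chr4:156200819-156200968 on the minus strand for Isg15, chr19:34640739-34640888 on the plus strand for Ifit1 and chr19:34583379-34583528 on the plus strand for Ifit3. Those of Oas1a and Oas1g lie on the minus strand at chr5:120907526-120907675 and chr5:120887614-120887763. Rsad2 is shown from chr12:26456453-26456602 and Bst2 from chr8:71537473-71537622, both on the minus strand. Ifit2 has 2 RefSeq starts, and the stretches before them are chr19:34550544-34550693 and chr19:34550938-34551087 on the plus strand. The stretch of Slfn2 is chr11:83064962-83065111 on the plus strand. Isg15 held 3 overlapping matches in 1 run, Bst2 held 2 overlapping matches, and Ifit1 held 2 matches separated by a short spacer. No match lay in either Ifit2 window, which says only that these letters were not found there.

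Many of these genes sit next to each other in the genome. By the GENCODE vM21 annotation of GRCm38, the build named mm10 in the submitters' processing notes, 8 of the 45 lie on chromosome 11, 6 on chromosome 5 and 6 on chromosome 16. The OAS genes on chromosome 5 include Oas2 (120730333 to 120749853), Oas3 (120753098 to 120777661), Oas1g (120876142 to 120887613) and Oas1a (120896256 to 120907521). On chromosome 19 lie Ifit2 (34550694 to 34576419), Ifit3 (34583531 to 34588731) and Ifit1 (34640871 to 34650009). The OAS, IFIT, Mx and Schlafen genes, Phf11b, Trim30a and Ifi27l2a have close relatives, so reads could have been split between copies and their single values are uncertain. The library kit does not mark strand, so reads of overlapping genes such as Parp9 and Dtx3l could not be told apart.

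A few facts of the whole table bear on what follows. The values are log2 normalised, the transform is not named in the sources used here, and it pulls low values together, so the depth of each library is unknown and precision rests on the spread of 3 libraries. Nothing in the labels says that the libraries of a group came from separate mice, and p-values measure only the spread between them. Whole-gene Smad4 did not check the genotype labels: the KO minus WT log2 difference was 0.00 (95% interval -0.12 to 0.13) at 3 h and 0.02 (-0.10 to 0.15) at 12 h. Replicate 2 of all 4 groups went against its label: Xist ranged from 4.55 to 5.70 and the Y-linked Ddx3y from 12.3 to 12.7 in these 4 libraries, whereas the other 8 had Xist of 15.1 to 16.3 and Ddx3y of 2.39 to 2.77. Genotype and time are balanced over these 4 libraries, and the counts of called genes given below are repeated without them. CD4 T cell markers were present in every library, with a summed log2 level of 16.27 to 16.55.

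The interferon response genes fell together between 3 h and 12 h. Genes were called where the adjusted p was under 0.05 (limma over all 12436 tested genes, Benjamini-Hochberg, two-sided). In WT cells 43 of the 45 were called, 41 lower and 2 higher at 12 h, and in KO cells 41 were called, 40 lower and 1 higher. Over all tested genes 67.9% were called in WT and 68.0% in KO, 33.6% lower in each, so being called is common in this comparison, and the size of the change says more. The median log2 difference of the 45 genes was -2.24 in WT and -2.14 in KO, against -0.00 and -0.00 over all tested genes. A call with a fall of at least 4-fold was made for 25 of the 45 genes in WT and 24 in KO, against 2.59% and 2.52% of all tested genes, and 23 genes fell that far in both genotypes. Of the 100 tested genes that fell most, 16 were from this list of 45 in WT and 16 in KO. The list was chosen with earlier results of these data known, so these shares describe it and do not test it. The 2 genotypes share no library in this comparison, and 40 genes were called lower in both. Without the 4 replicate 2 libraries, 43 genes were called in WT and 40 in KO. The libraries of the 2 times did not overlap for 41 of the 45 genes in each genotype, against 72.7% of all tested genes in WT and 69.5% in KO. The mean level of 3 genes in WT and 6 in KO was under 3 at 12 h, where the transform understates a fall. At 3 h 0 genes were under 3, so some genes passed the filter only through their values at 3 h. With the libraries of 12 h alone, 41 of the 45 genes passed it. The others are counted among the falls above, where the filter favours a fall.

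**Figure D1:**
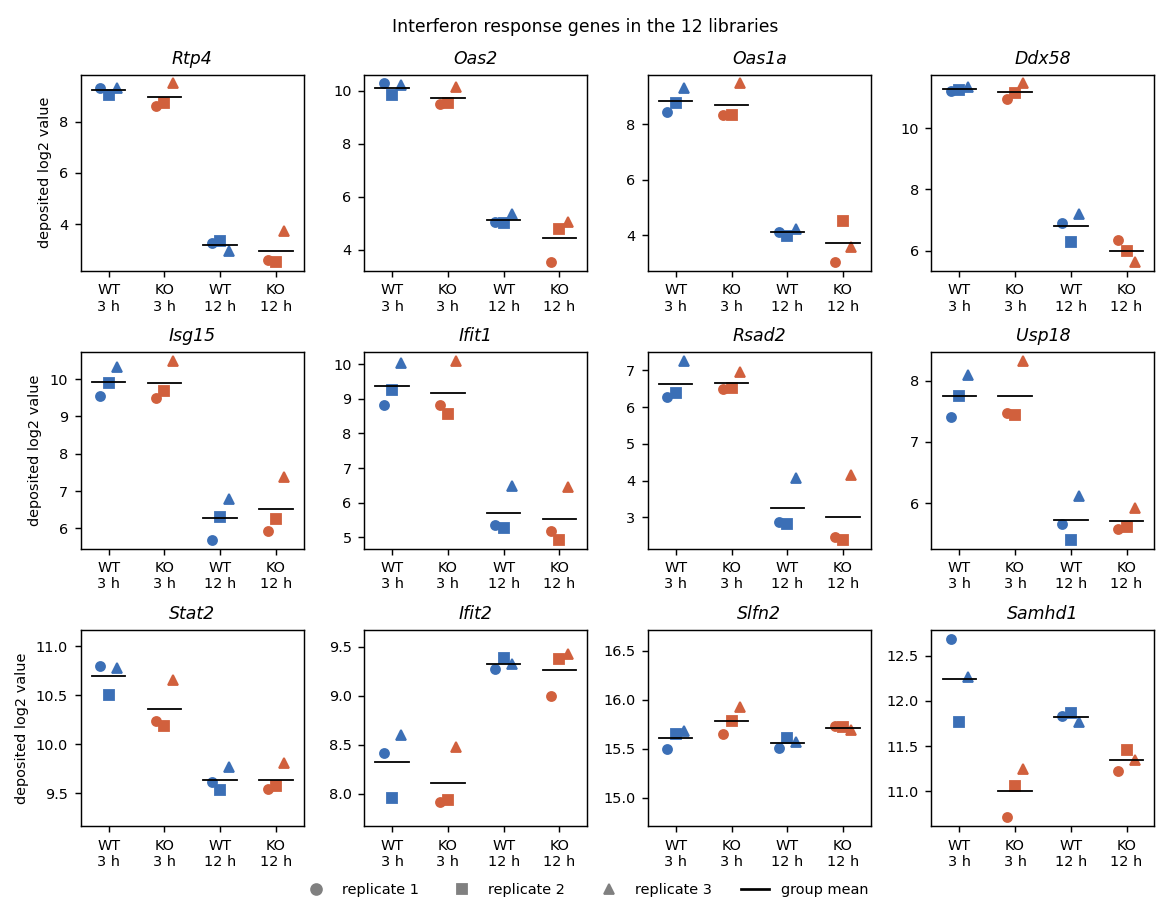
Deposited log2 values (y axis of each panel) of interferon response genes in the 12 libraries, grouped by genotype and time on the x axis; symbols mark the replicate number and bars the group mean. Rtp4, Oas2, Isg15 and Ddx58 lie lower in all 6 libraries at 12 h than in any at 3 h, whereas Ifit2 lies higher and Slfn2 overlaps.

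Rtp4, which encodes a receptor transporter protein induced by interferon, had the largest fall of the 45 genes and the second largest of all tested genes in each genotype. Its log2 values were 9.31, 9.03 and 9.32 in WT at 3 h and 8.60, 8.74 and 9.48 in KO at 3 h. At 12 h they were 3.28, 3.33 and 2.97 in WT and 2.61, 2.54 and 3.72 in KO. The 6 libraries at 12 h lay far below the 6 at 3 h, with no overlap. The log2 difference was -6.02 ± 0.30 (SE) in WT, a 65.0-fold fall (adjusted p = 8.44e-11, n = 3 per group), and -5.98 ± 0.30 in KO, a 63.3-fold fall (adjusted p = 9.37e-11).

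All 6 genes of the OAS family fell in both genotypes, with a median log2 difference of -4.30 in WT and -4.27 in KO. Oligoadenylate synthetases sense double-stranded RNA and make short adenylate chains that activate RNase L. Oas2 stood at 10.28, 9.84 and 10.22 in WT and 9.50, 9.53 and 10.14 in KO at 3 h. By 12 h it stood at 5.04, 4.99 and 5.35 in WT and 3.54, 4.80 and 5.05 in KO. The log2 difference was -4.99 in WT and -5.26 in KO, falls of 31.7-fold and 38.3-fold, with no overlap between times. Oas1a went from 8.44, 8.78 and 9.33 to 4.13, 3.98 and 4.22 in WT and from 8.33, 8.35 and 9.48 to 3.03, 4.49 and 3.57 in KO. Its log2 differences were -4.74 ± 0.36 and -5.02 ± 0.36. The neighbouring Oas1g fell (-4.39 and -4.16), Oas3 (-3.40 and -4.12), and the related genes Oasl2 (-4.22 and -4.38) and Oasl1 (-2.63 and -2.39). Here and below, a pair of values in parentheses is the log2 difference between 12 h and 3 h in WT and then in KO. Oasl1, which in mice restrains the translation of IRF7, had the smallest fall of the family, with an SE of 0.50.

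Sensors of foreign nucleic acid fell in 4 of 4 cases, with a median log2 difference of -3.51 in WT and -3.25 in KO. Ddx58 encodes RIG-I, a cytosolic sensor of viral RNA ends. It stood at 11.21, 11.25 and 11.36 in WT and 10.96, 11.14 and 11.46 in KO at 3 h. At 12 h the values were 6.92, 6.30 and 7.19 in WT and 6.35, 5.98 and 5.63 in KO. The groups at 3 h were tight and lay above those at 12 h in every library, and the log2 difference was -4.47 ± 0.21 in WT (adjusted p = 5.56e-11) and -5.20 ± 0.21 in KO (adjusted p = 1.25e-11). Zbp1, which senses Z-form nucleic acid and triggers cell death, fell (-4.001 and -3.68), and so did Ifih1, which encodes MDA5, a sensor of long double-stranded RNA (-3.03 and -2.83). Dhx58, which encodes the related helicase LGP2, fell least of the 4 (-1.63 and -1.70).

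The 3 IFIT genes, whose products bind RNA and block its translation, split in direction. Ifit1 stood at 8.81, 9.26 and 10.02 in WT and 8.81, 8.56 and 10.08 in KO at 3 h. At 12 h it stood at 5.35, 5.26 and 6.49 in WT and 5.18, 4.93 and 6.47 in KO. Replicate 3 was the highest library of each group, and even so no library at 12 h reached the lowest at 3 h. The log2 difference was -3.66 ± 0.45 in WT and -3.63 ± 0.45 in KO, and that of Ifit3 was -2.82 ± 0.36 and -2.86 ± 0.36. Ifit2 went the other way, from 8.42, 7.96 and 8.60 to 9.27, 9.38 and 9.32 in WT and from 7.92, 7.94 and 8.47 to 9.0, 9.37 and 9.42 in KO. All 6 libraries at 12 h lay above all 6 at 3 h for Ifit2. Its log2 difference was 1.00 ± 0.18 in WT (adjusted p = 0.000138) and 1.15 ± 0.18 in KO (adjusted p = 3.26e-05), and it was the only one of the 45 genes called higher in both genotypes. No match to the motif lay in the stretches printed above for it, nor in the windows of Oasl2 and Xaf1, which fell.

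Isg15 encodes a ubiquitin-like protein that is attached to other proteins by UBA7, UBE2L6 and, in mice, HERC6, and removed by USP18. Isg15 stood at 9.54, 9.90 and 10.31 in WT and 9.49, 9.69 and 10.48 in KO at 3 h. At 12 h it stood at 5.70, 6.31 and 6.79 in WT and 5.93, 6.26 and 7.37 in KO. The log2 difference was -3.65 ± 0.35 in WT (adjusted p = 1.76e-07) and -3.36 ± 0.35 in KO (adjusted p = 4.48e-07), without overlap between times. Usp18, which also blocks signalling at the interferon receptor, went from 7.40, 7.74 and 8.09 to 5.65, 5.40 and 6.11 in WT. In KO it went from 7.47, 7.44 and 8.31 to 5.58, 5.60 and 5.92. Its fall was close to 4-fold in each genotype, with log2 differences of -2.02 ± 0.26 and -2.04 ± 0.26. Herc6 fell (-1.12 and -0.78), and outside the 45 genes Uba7 fell (-3.62 and -3.66) and Ube2l6 (-4.15 and -3.70), so the genes for activation, conjugation, ligation and removal of ISG15 were all called lower in both genotypes.

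Mx proteins are dynamin-like GTPases that trap viral components, and C57BL/6 mice are known to carry a defective Mx1 allele. Mx1 was near the filter, at 4.75, 4.20 and 4.35 in WT and 4.28, 3.52 and 4.79 in KO at 3 h. Its values at 12 h were 3.18, 3.24 and 2.88 in WT and 3.52, 2.29 and 2.34 in KO. In KO the highest library at 12 h and the lowest at 3 h had the same value to 2 decimals. The log2 difference was -1.33 ± 0.35 in WT (adjusted p = 0.00330) and -1.48 ± 0.35 in KO (adjusted p = 0.00152), while that of Mx2 was -3.51 and -3.30.

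Other antiviral effectors fell by sizes that differed widely. Rsad2, which encodes viperin, an enzyme that makes a chain-terminating nucleotide, went from 6.27, 6.38 and 7.25 to 2.87, 2.82 and 4.06 in WT. In KO it went from 6.50, 6.51 and 6.96 to 2.45, 2.39 and 4.15. Its log2 difference was -3.38 ± 0.44 and -3.66 ± 0.44, and that of its neighbour on chromosome 12, the nucleotide kinase gene Cmpk2, was -2.33 and -1.87. Isg20, which encodes an exonuclease, had little spread: 9.998, 10.24 and 10.34 in WT and 10.18, 10.21 and 10.31 in KO at 3 h. At 12 h all 6 Isg20 values lay between 7.66 and 7.85. Its log2 difference was -2.37 ± 0.11 in WT and -2.46 ± 0.11 in KO. Eif2ak2, which encodes the translation-blocking kinase PKR, fell (-1.77 and -1.69). Bst2, which encodes the virus-retaining protein tetherin, fell only slightly (-0.39 and -0.28), and its promoter stretch above holds 2 matches to the motif.

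Smaller falls were found among regulators. Stat2, the ISGF3 subunit, stood at 10.79, 10.50 and 10.78 in WT and 10.24, 10.18 and 10.66 in KO at 3 h. At 12 h it stood at 9.62, 9.53 and 9.77 in WT and 9.54, 9.57 and 9.81 in KO. The groups did not overlap between times, and the log2 difference was -1.05 ± 0.13 in WT (adjusted p = 2.27e-06) and -0.72 ± 0.13 in KO (adjusted p = 0.000118). Nlrc5, the transactivator of MHC class I genes, fell (-1.81 and -1.63). Among the ADP-ribosyltransferase genes and Dtx3l, the ubiquitin ligase partner of PARP9, all 4 fell: Parp14 (-2.83 and -2.73), Parp9 (-2.01 and -1.92), Parp12 (-0.85 and -1.04), and Dtx3l (-0.88 and -0.88). The 3 TRIM ubiquitin ligase genes fell too, Trim30a (-2.24 and -2.15), the antibody receptor gene Trim21 (-1.35 and -1.23), and Trim25, which acts on RIG-I, only slightly (-0.24 and -0.20). Of the remaining genes, Xaf1 fell (-3.78 and -4.30), Ifi27l2a (-3.26 and -3.58), Lgals3bp (-3.06 and -3.07), Ifi44 (-2.71 and -3.37) and Tor3a (-1.25 and -1.93).

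A few of the 45 genes did not follow. Slfn2, a Schlafen gene needed for T cell quiescence in mice, stood at 15.49, 15.65 and 15.68 in WT and 15.65, 15.78 and 15.93 in KO at 3 h. At 12 h it stood at 15.51, 15.61 and 15.57 in WT and 15.73, 15.73 and 15.69 in KO. The times overlapped, with differences of -0.05 ± 0.07 (95% interval -0.20 to 0.11) and -0.07 ± 0.07 (-0.22 to 0.08) on the log2 scale. The other Schlafen genes were called lower, Slfn1 (-1.90 and -2.14), Slfn5 (-0.87 and -0.78) and Slfn8 (-0.38 and -0.48). Sp100, which encodes a nuclear body protein, was not called in WT (-0.36 ± 0.16, adjusted p = 0.0505) or in KO (-0.17 ± 0.16, adjusted p = 0.337). Phf11b was called higher in WT at 0.53 ± 0.22 (adjusted p = 0.0438) and was at 0.35 ± 0.22 in KO (adjusted p = 0.174). Its call in WT was kept under only 8 of 21 alternative settings. Both genes changed sides of the threshold when the replicate number was fitted as a block. The WT value of Sp100 was called (adjusted p = 0.0259) and that of Phf11b was not (adjusted p = 0.0503).

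**Figure D2:**
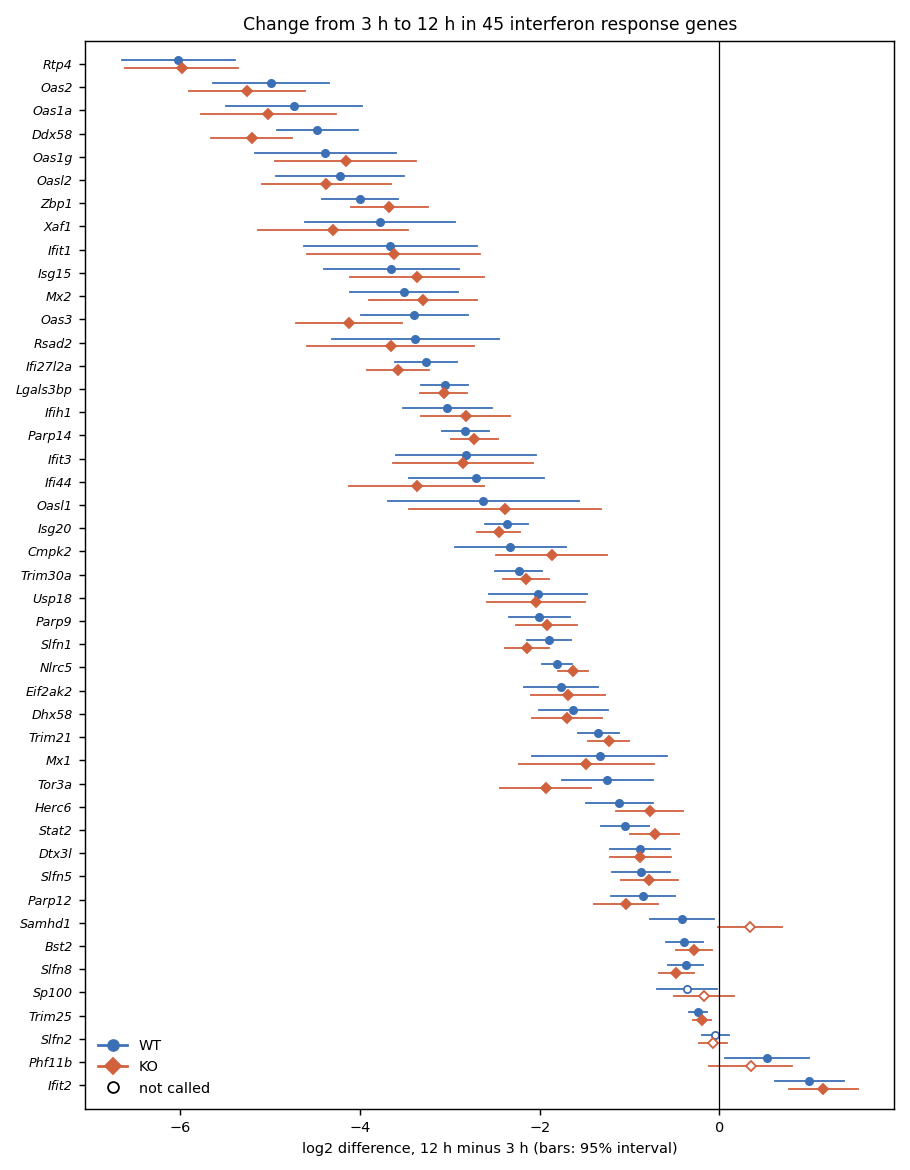
Log2 difference between 12 h and 3 h (x axis) for each of the 45 interferon response genes (y axis), in WT (blue circles) and KO (orange diamonds), with 95% intervals from limma; open symbols were not called. Most genes lie left of 0 in both genotypes, from -6.02 for Rtp4 in WT to 1.15 for Ifit2 in KO.

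The 17 genes with a match to the response element core had a median log2 difference from 3 h to 12 h of -2.82 in WT and -2.83 in KO. The 16 genes with a window but no match had medians of -1.51 and -1.46. The ranges overlapped almost wholly, from -4.74 to 0.53 with a match and from -4.22 to 1.00 without in WT, and the 2 sets were not tested against each other. Rtp4, Oas2, Zbp1 and Mx2 are among the 12 genes for which no promoter window was given, so the set with a window leaves out some of those that fell most.

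Genes that produce, carry or restrain the signal moved in both directions. Of 51 other interferon pathway genes listed, 32 passed the filter. In WT 26 were called between 3 h and 12 h, 19 lower and 7 higher, and in KO 27 were called, 18 lower and 9 higher. Over all tested genes 67.9% were called in WT and 68.0% in KO, 33.6% lower in each, so being called is common here too. None of 17 genes for type I interferons passed the filter: 5 were at 0 in all 12 libraries, and the highest single value was 1.44, for Ifnb1. At 3 h Ifnb1 was at 0.86, 0.47 and 1.11 in WT and 1.44, 1.01 and 1.08 in KO. At 12 h it was at 0.46 to 0.47 in every library. The mean of Ifna13 was also higher at 3 h, whereas those of Ifne and Ifnk were highest in WT at 12 h. These low values were not tested. The receptor gene Ifnar1 was not called (-0.19 ± 0.09 in WT and -0.09 ± 0.09 in KO), whereas Ifnar2 fell (-0.58 and -0.66). Without the 4 replicate 2 libraries 25 of 33 tested were called in each genotype, against 7096 in WT and 7304 in KO of all 12433 genes then tested. Of the kinases, Jak1 was not called (0.04 and 0.10), Tyk2 rose by 0.30 and 0.32, and Jak2 fell (-1.24 and -1.16).

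The ISGF3 genes Stat2 and Irf9 were called lower in both genotypes. Irf9 had log2 differences of -1.16 ± 0.09 in WT and -1.23 ± 0.09 in KO. Without the 4 replicate 2 libraries the call of Tyk2 was lost in WT (0.25, adjusted p = 0.0843), as were those of Ticam1 in WT (0.23, adjusted p = 0.0991) and Irf3 in KO (-0.19, adjusted p = 0.0951), and Ifnar1 was called in WT (-0.26, adjusted p = 0.0347). Irf7, the factor that amplifies interferon gene transcription and is itself an interferon target, stood at 10.45, 10.25 and 10.30 in WT and 9.72, 9.93 and 10.42 in KO at 3 h. At 12 h it stood at 6.04, 4.72 and 5.41 in WT and 4.61, 4.51 and 4.94 in KO. Irf7 thus fell (-4.94 ± 0.26 and -5.34 ± 0.26), as did Irf1 (-1.74 and -1.47).

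Genes that restrain cytokine signalling also moved in both directions. Socs1, an inhibitor of JAK kinases, stood between 13.3 and 14.0 in the libraries at 3 h and between 10.3 and 11.3 at 12 h. It fell (-3.31 ± 0.19 in WT and -2.73 ± 0.19 in KO), as did Socs3 (-2.25 and -2.14). Adar, the RNA-editing enzyme gene that keeps self RNA from sensors, fell (-1.21 and -1.18), and Pias1 (-0.33 and -0.37), while the phosphatase genes Ptpn6 and Ptpn11 rose by 0.45 and 0.36 in WT and by 0.31 and 0.40 in KO.

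Genes that sense nucleic acid and induce interferon were called in both directions. Mb21d1, which encodes the DNA sensor cGAS, fell (-1.33 and -1.39), while Tmem173, which encodes its downstream partner STING, rose by 0.63 and 0.88, and the DNA exonuclease gene Trex1 rose by 1.19 and 1.20. The RNA-sensing adaptor gene Mavs rose by 0.53 and 0.46. Traf3 fell (-1.29 and -1.32), Tbk1 (-0.66 and -0.75), Irf3 (-0.44 and -0.31), Myd88 (-0.45 and -0.42), and Tlr7 (-1.18 and -0.75). The adaptor gene Ticam1 rose by 0.23 in WT and was not called in KO (0.09), and Ikbke rose by 1.04 in KO and was not called in WT (0.00). For interferon γ, Ifng fell (-1.22 and -1.28), Ifngr1 fell by 0.97 in WT and was not called in KO (0.36), and Ifngr2 rose by 0.73 in KO and was not called in WT (0.08). Whether the last 4 changes differ between genotypes was tested by the interaction given below, and none was called.

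**Figure D3:**
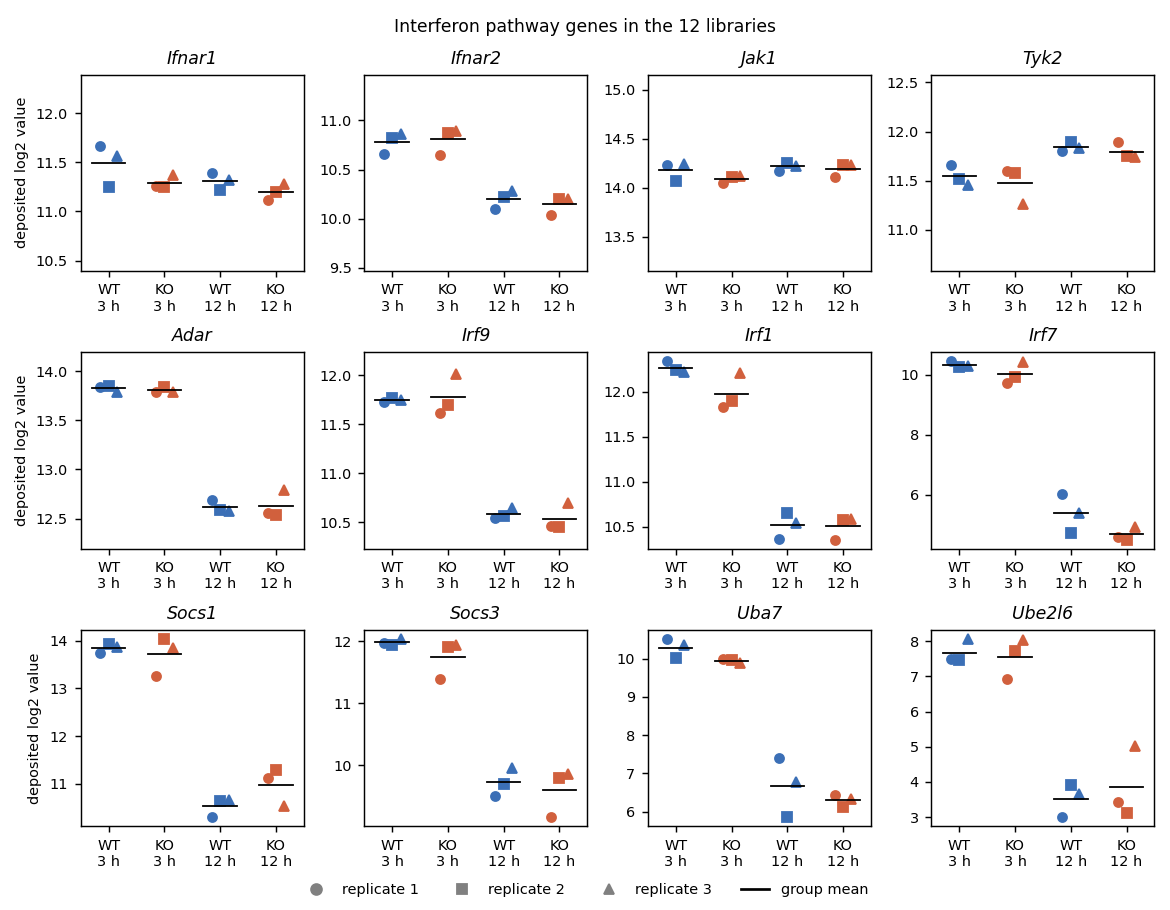
Deposited log2 values (y axis) of 12 genes of the interferon pathway outside the list of 45, in the 12 libraries by genotype and time (x axis), with replicate numbers as symbols and group means as bars. Irf7, Uba7, Ube2l6 and Socs1 drop between 3 h and 12 h by more than 2 on the log2 scale, while Jak1 overlaps between times.

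Several markers of other cells fell over the same interval, in which 33.6% of all tested genes were called lower in each genotype. In bulk samples, fewer cells of a type and less RNA per cell cannot be told apart. The summed log2 level of 6 B cell markers was 8.61 to 8.95 in WT and 8.50 to 8.54 in KO at 3 h, and 7.71 to 8.06 and 7.67 to 7.74 at 12 h. In WT 4 of the 6 were called lower, and in KO 3. For plasmacytoid dendritic cells, strong producers of interferon, 3 of 4 tested markers were called lower in each genotype. Their summed level, mostly Pacsin1, ranged from 11.7 to 12.0 in WT and 12.0 to 12.2 in KO at 3 h, and from 9.60 to 10.2 and 9.87 to 10.3 at 12 h. The defining marker Siglech stayed under the filter, as did Cox6a2, and neither was tested. At 3 h Siglech was at 1.63, 2.14 and 2.44 in WT and 2.11, 2.06 and 1.91 in KO. At 12 h it was at 1.61 to 1.64 in every library. Ly6d hardly moved, with means at 3 h and 12 h of 4.74 and 4.67 in WT and 4.63 and 4.73 in KO. Of 6 tested myeloid and dendritic markers 5 were called lower in each genotype, with sums of 6.71 to 7.31 at 3 h and 5.92 to 6.17 at 12 h. The CD8 T and NK cell sum, mostly Cd8b1, ranged over 8.85 to 9.18 at both times. Of 4 tested markers in this list, 2 were called lower and 1 higher in WT, and 1 was called lower in KO. The mean of Gzma went from 4.61 to 2.28 in WT and from 4.32 to 2.08 in KO. No marker was at 0 in all libraries. The part of these cells in the fall of the interferon response genes was not tested.

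Between KO and WT, few differences in these genes were called. At 3 h 1 of the 45 genes was called, Samhd1, lower in KO, where 0.748% of all tested genes were called lower. An unadjusted p under 0.05 was reached by 8 of the 45 and by 1131 of the 12436 tested genes. The difference was negative for 34 genes and positive for 11, against 6254 and 6182 over all tested genes, and the median was -0.15 against -0.00. That median depended on single libraries: it was -0.33 without KO replicate 3, -0.09 without KO replicate 1, -0.06 without KO replicate 2 and -0.08 without WT replicate 3. The WT and KO libraries did not overlap for 4 genes, Samhd1, Parp14, Nlrc5 and Trim25, against 11.6% of all tested genes. The largest positive difference was 0.62, for Ifi44, which was not called. Leaving out the 4 replicate 2 libraries, Samhd1 was again the 1 gene called.

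Samhd1 encodes an enzyme that degrades deoxynucleotides and so limits reverse transcription and DNA synthesis, and it lies on chromosome 2 (157097533 to 157135265). Its log2 values at 3 h were 12.68, 11.77 and 12.26 in WT, 12.24 ± 0.46 (SD, n = 3), and 10.71, 11.06 and 11.25 in KO, 11.01 ± 0.27. Every KO library lay below every WT library. The log2 difference was -1.23 ± 0.17 (SE, 95% interval -1.59 to -0.87, adjusted p = 0.00308), which placed Samhd1 at rank 32 from the lowest of the 12436 tested genes. At 12 h its values were 11.83, 11.86 and 11.77 in WT and 11.23, 11.46 and 11.35 in KO. These groups did not overlap either, at a difference of -0.48 ± 0.17 that was not called (adjusted p = 0.438). Over the mean of both times, which uses the same libraries, the difference was -0.85 ± 0.12 (adjusted p = 0.00110). Between 3 h and 12 h Samhd1 fell by 0.42 in WT (adjusted p = 0.0396) and was at 0.34 ± 0.17 in KO (adjusted p = 0.0870). The summed level of the B cell markers at 3 h was 8.61 to 8.95 in WT and 8.50 to 8.54 in KO, with 0 of the 6 called by limma, and their part in the Samhd1 difference was not tested. The call at 3 h was lost when the prior variance had no trend (adjusted p = 0.0585) and when low genes were kept (adjusted p = 0.0806).

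Among genes that fell with time, many had KO minus WT intervals at 3 h that spanned 0. The 95% intervals of the log2 difference were -0.90 to 0.35 for Rtp4, -0.78 to 0.71 for Isg15, -1.18 to 0.75 for Ifit1, -0.55 to 0.54 for Usp18 and -0.20 to 0.28 for Isg20. The intervals of Rtp4, Isg15, Usp18 and Isg20 lie within 2-fold in either direction, and that of Ifit1 reaches beyond it. Outside the 45 genes, 2 of 32 tested pathway genes were called at 3 h, both lower in KO, where 1.05% of all tested genes were called in either direction. Ifngr1 was 11.50, 9.81 and 10.97 in WT and 9.34, 9.26 and 9.63 in KO (-1.35 ± 0.28, adjusted p = 0.0319). Ikbke, the gene for a kinase that activates interferon transcription, was 11.83, 10.52 and 10.96 in WT and 9.87, 10.13 and 10.11 in KO (-1.06 ± 0.22, adjusted p = 0.0355). At these 2 genes, as at Samhd1, replicate 2 was the lowest WT library, and the groups did not overlap. Without the 4 replicate 2 libraries the differences were -1.75 (adjusted p = 0.00133) and -1.40 (adjusted p = 0.0139), and that of Samhd1 was -1.49 (adjusted p = 0.00247).

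At 12 h limma called 0 of the 45 genes, where 0.667% of all tested genes were called, and 8 of the 45 and 792 of the 12436 tested genes had an unadjusted p under 0.05. The median difference was -0.08, against -0.01 over all tested genes, with 34 of the 45 and 6619 of all tested genes negative. Leaving out any 1 of the 6 libraries at 12 h moved this median by over 1.5 times: it was -0.19, -0.18 and -0.04 without WT replicate 1, 2 and 3, and -0.05, -0.05 and -0.24 without KO replicate 1, 2 and 3. The smallest adjusted p-values belonged to Ddx58 (-0.82 ± 0.21, adjusted p = 0.129), Oas3 (-0.94 ± 0.28, adjusted p = 0.226) and Samhd1. Oas3 was 6.55, 6.18 and 6.84 in WT and 5.11, 5.22 and 6.41 in KO, where replicate 3 of KO lay within the WT range. Same-numbered libraries deviated together across genotypes at both times, and with the replicate number as a block Oas3 was called at 12 h (adjusted p = 0.0231). The libraries did not overlap for 7 of the 45 genes, against 12.8% of all tested genes. These were Phf11b, Samhd1, Parp12, Sp100, Parp9 and Trim25, lower in KO, and Slfn2, higher in KO. Without the 4 replicate 2 libraries, 0 genes were called.

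**Figure D4:**
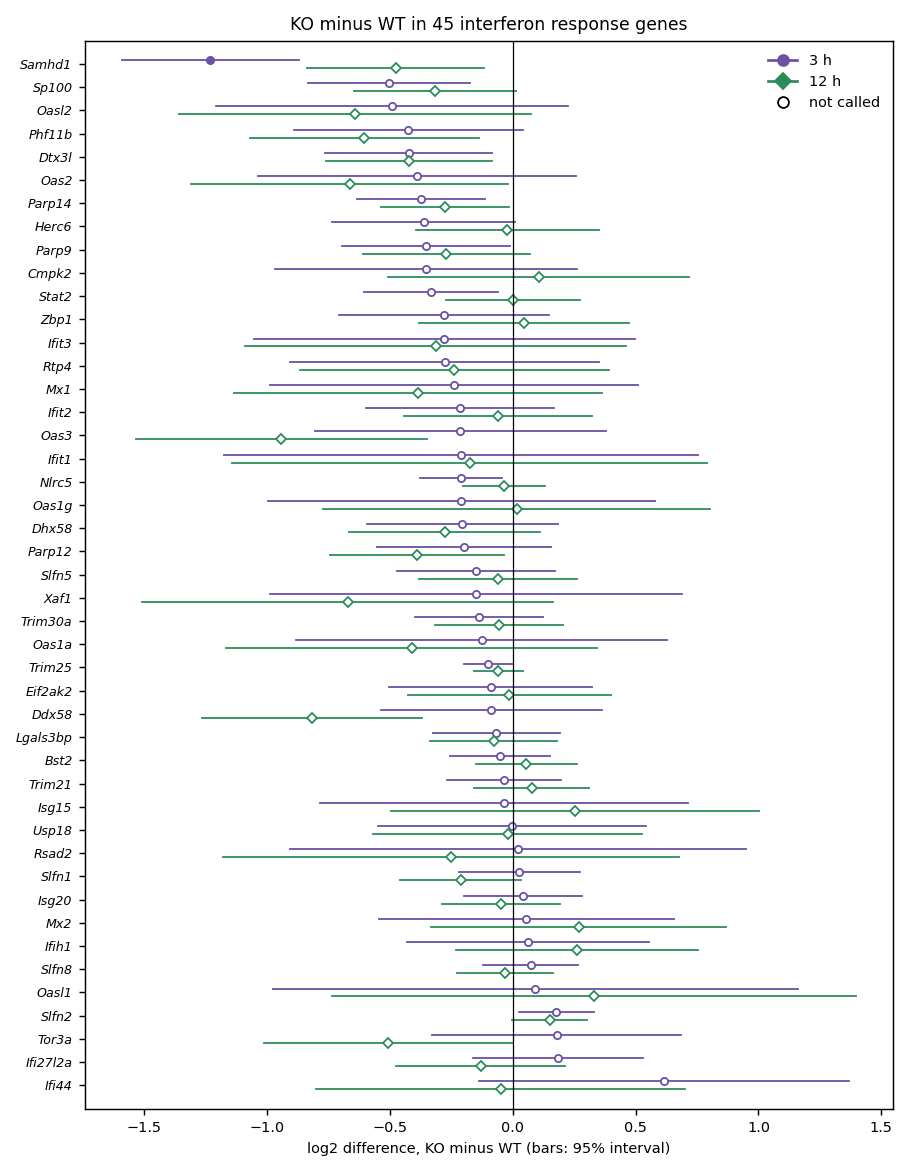
Log2 difference between KO and WT (x axis) for each of the 45 interferon response genes (y axis) at 3 h (purple circles) and 12 h (green diamonds), with 95% intervals from limma; open symbols were not called. Samhd1 at 3 h, at -1.23, is the only filled symbol, and most points lie slightly left of 0.

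With both times averaged, 1 gene was called, Samhd1, where 1.26% of all tested genes were called lower and 2.29% in either direction. An unadjusted p under 0.05 was reached by 14 of the 45, against 1334 of the 12436 tested genes, and 35 differences were negative, against 6513. The median was -0.12, against -0.00 over all tested genes. It was -0.21 and -0.23 without WT replicate 2 and KO replicate 3 at 3 h, and -0.19 and -0.21 without WT replicate 2 and KO replicate 3 at 12 h. The median was less negative without some other libraries. It was -0.09 without KO replicate 1 at 3 h or at 12 h. Without KO replicate 2 or WT replicate 3 at 3 h it was -0.10, and without WT replicate 3 at 12 h it was -0.11. With the replicate block 5 genes were called lower in KO. Beside Samhd1 they were Dtx3l (-0.42, adjusted p = 0.0668 without and 0.0156 with the block), Parp14 (-0.32, 0.0674 and 0.0263), Sp100 (-0.41, 0.0682 and 0.0266) and Oas3 (-0.58, 0.201 and 0.0262). Without the 4 replicate 2 libraries, Samhd1 was again the 1 gene called.

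Whether the genotypes differed in the change over time was tested by the interaction. By limma 0 of the 45 genes and 0 of all tested genes were called, with 2 of the 45 and 497 of all tested genes at an unadjusted p under 0.05. The smallest adjusted p belonged to Samhd1, whose KO minus WT difference was less negative at 12 h by 0.76 ± 0.24 (adjusted p = 0.814). For Ddx58 the interaction was -0.73 ± 0.30 and for Tor3a -0.69 ± 0.34, both at an adjusted p of 0.999. The 95% interval of the interaction was -0.85 to 0.93 for Rtp4, -0.77 to 1.35 for Isg15 and -1.33 to 1.40 for Ifit1, and differences in their fall within these bounds were not resolved. Leaving out the 4 replicate 2 libraries, the interaction called 0 of the 45 genes and 0 of all tested genes.

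The mean log2 value over the 45 genes puts these comparisons on 1 scale. It was 9.75, 9.63 and 9.95 in WT and 9.45, 9.42 and 9.97 in KO at 3 h, with group means of 9.78 ± 0.16 and 9.61 ± 0.31 (SD, n = 3). At 12 h it was 7.43, 7.46 and 7.66 in WT and 7.16, 7.23 and 7.60 in KO, with means of 7.52 ± 0.13 and 7.33 ± 0.24. No library at 12 h came near those at 3 h, and the genotypes overlapped at both times. Between libraries of the same number the change from 3 h to 12 h was -2.32, -2.17 and -2.29 in WT and -2.29, -2.19 and -2.37 in KO. The KO library minus the WT library of the same number gave -0.30, -0.20 and 0.02 at 3 h, and -0.27, -0.22 and -0.06 at 12 h. This gap was thus close to 0 in replicate 3 and negative in replicates 1 and 2 at both times. Replicate 3 was the highest library of its group for 29 of the 45 genes in WT and 39 in KO at 3 h, and for 24 and 33 at 12 h.

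**Figure D5:**
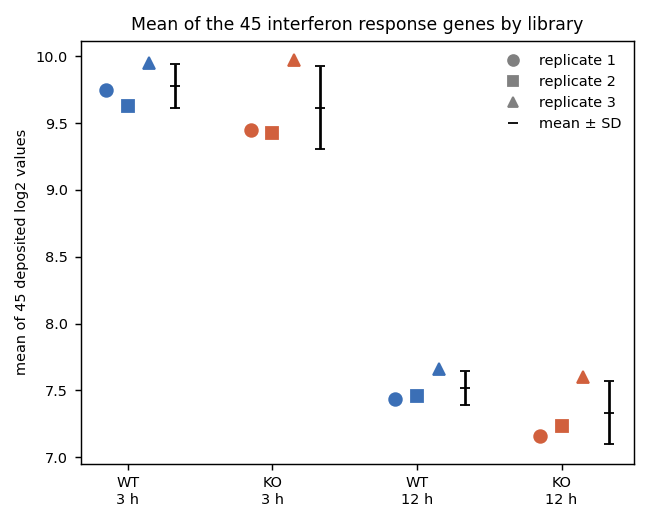
Mean of the deposited log2 values over the 45 interferon response genes (y axis) in each library by genotype and time (x axis), with replicate numbers as symbols and bars for the group mean ± SD. Within a genotype and replicate number the mean falls by 2.17 to 2.37, and replicate 3 lies highest in each of the 4 groups.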

How the data were processed

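RNA sequencing of 12 libraries, 3 in each of 4 groups of genotype and time, was analysed from 1 deposited table of log2 expression values that the authors normalised. The submitters' processing notes name Trim Galore, STAR, featureCounts, DESeq2 and the build mm10, and neither versions nor options were given in the sources used here. No source names the transform: 5663 rows were at 0 in all libraries and 0 rows in only some, as in a regularised log, so counts and depths could not be recovered and no counting interval was computed. All columns matched 1 sample each, and 0 were left unmapped.

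Group means were fitted with limma 3.58.1 in R 4.3.3 (lmFit, eBayes with trend) over all 12 libraries, on 12436 rows with a mean of at least 3. P-values were adjusted by Benjamini-Hochberg over all of them. Differences are given with SE, group means with SD, and folds are 2 to the power of a log2 difference. In data simulated for KO against WT at 3 h over 12436 genes, 86% of genes changed by 1 on the log2 scale and 97% of those changed by 2 were recovered, with 7 false calls. The simulated noise was independent between libraries, unlike the deviations of same-numbered libraries in the data. These rates check the fit and need not hold for the data.

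The 45 genes, the pathway and marker lists and the rule for named genes were chosen with earlier results of these data known. By that rule, values in every library are given for Stat2, Isg15, Ifit1, Mx1, Usp18, Rtp4, Oas2, Rsad2, Isg20, Slfn2 and the 4 largest called differences of each comparison. The 12 largest called differences are named, or the 3 smallest adjusted p-values where none was called. Other genes with library values were chosen after these were seen. The labels number the replicates in each group. Deviations of same-numbered libraries from their group means correlated at 0.194, 0.402 and 0.347 between genotypes at 3 h, at 0.174, 0.500 and 0.186 at 12 h, and at 0.211, 0.432 and 0.207 between times in WT, all above 0.1, and the block is given where it changed a call. Between times in KO they correlated at 0.0637, 0.368 and 0.0892. Alternatives were other priors, filters, weights, scalings, blocks and library sets. Promoters are from RefSeq. A gene of the pathway list is counted among the called genes but is not reported here by name.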

Additional observations from a re-analysis of the deposited data

How the results depend on the processing

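Depth is unknown, so the limit on precision is the spread of 3 libraries. The counts over time kept within 1.5 times of 43 in WT (39 to 44) and 41 in KO (36 to 42) under all alternatives. In WT 41 of the 43 calls held under every alternative that tested the gene (the others were Samhd1 and Phf11b), and in KO 39 of 41 (the others were Bst2 and Trim25). Of 21 alternatives, Samhd1 was called in 12 and Phf11b in 8 in WT, and Bst2 in 17 and Trim25 in 20 in KO. With a mean of at least 5 only 40 of the 45 genes were tested, without Mx1, Mx2, Rsad2, Cmpk2 and Ifi44. For KO against WT at 3 h, 0 of the 45 genes were called with no trend in the prior and 0 with no filter on low values, where Samhd1 had adjusted p-values of 0.0585 and 0.0806 at a log2 difference of -1.23. Leaving out 1 library gave 1 to 2 calls, Sp100 being added without WT replicate 2 or KO replicate 3 at 3 h. At 12 h the count was 1 with array weights (Ddx58), 1 with the replicate block (Oas3), 1 with the compared groups alone (Samhd1), and 0 to 1 with 1 library left out (Ddx58 without WT replicate 2, Oas3 without KO replicate 3). For the mean of both times it was 3 with array weights, 5 with the replicate block, and 1 to 6 with 1 library left out (6 without KO replicate 3 at 3 h, 4 without KO replicate 3 at 12 h, 3 without WT replicate 2 at 3 h, 2 without WT replicate 2 at 12 h). Samhd1 was called there in all 20 alternatives. The interaction gave 0 to 1 calls with 1 library left out, Samhd1 without WT replicate 2 at 3 h (0.99, adjusted p = 0.0458). The causes were not tested. The block changed no other call among the 45 genes than those given with the results. Median centring moved the median change over time of all tested genes to -0.11 in WT and -0.13 in KO, and in KO the calls over all genes to 3459 higher and 5108 lower, from 4269 and 4184.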
